A study of Saccharomyces cerevisiae with 2 samples.

Results

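The first 1450 nucleotides of the 25S rRNA, the RNA of the large ribosomal subunit, cover about domains I and II. They were taken by position, as nucleotides 3252 to 4701 of the 35S pre-rRNA, and make up 1450 of the 6858 nucleotides of this transcript and 1450 of the 3396 nucleotides of the 25S rRNA. In the R64 assembly of Saccharomyces cerevisiae they lie in the exon of the noncoding gene RDN25-1, at chrXII:453732-455181 on the minus strand. The border between the domains was not given in the sources used here, so they are described as 1 region. The rDNA is repeated, and every value refers to the sum over its copies.

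RNA crosslinking and analysis of cDNA (CRAC) was performed with 1 library from cells expressing Rbp95 with a C-terminal HTP tag (a His tag, a TEV cleavage site and protein A) and 1 library from untagged control cells. The labels give the BY4741 background for both strains, growth in minimal medium without tryptophan with glucose, and UV irradiation for 100 s, whereas the methods name BY4742 as the control strain. In CRAC the protein is crosslinked to RNA in living cells and purified, the bound RNA is trimmed with RNases, and the remaining fragments are reverse transcribed and sequenced. Each pileup gives, for each nucleotide, the number of reads that cover it (hits) and the number of reads with a substitution or a deletion there. Since each condition is a single library, replicate error cannot be estimated and no difference between the libraries was tested. The pileups were limited to 100000 reads each and the 35S pre-rRNA held an estimated 97296 reads with Rbp95-HTP and 99994 in the control, so the total depth of the libraries is unknown and only shares within a library can be set side by side. Reads may be PCR copies of the same molecule, and all 95% Wilson intervals cover counting error only.

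The domains of the 25S rRNA come together in a hierarchical order in the nucleolus, and domains I and II, with domain VI, belong to the parts that compact in early pre-60S particles. Domain I is among the pairing sites of the box C/D snoRNA snR190, and domain II contains the GTPase-associated center, where translation factors bind the mature subunit. Domain I also contains A645, an adenosine that is N1-methylated by the methyltransferase Rrp8.

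The stretch of the region with the most Rbp95-HTP hits is shown first, as DNA in the sense of the rRNA, with the nucleotides that kept at least 50% of the height of the peak (749 to 779) in capitals. The control reads on the region fell almost entirely on 3 fragments, which are shown with it.
Rbp95-HTP peak, nucleotides 690 to 783, chrXII:454399-454492, minus strand: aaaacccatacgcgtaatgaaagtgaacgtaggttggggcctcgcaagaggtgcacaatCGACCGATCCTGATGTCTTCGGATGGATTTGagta
Control fragment, nucleotides 708 to 749, chrXII:454433-454474, minus strand: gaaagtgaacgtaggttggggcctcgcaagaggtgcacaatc
Control fragment, nucleotides 735 to 776, chrXII:454406-454447, minus strand: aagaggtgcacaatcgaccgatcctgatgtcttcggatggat
Control fragment, nucleotides 983 to 1024, chrXII:454158-454199, minus strand: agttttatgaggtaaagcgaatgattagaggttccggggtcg

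The nucleotides that were most often altered in the Rbp95-HTP library are shown in capitals within the covered stretches that contain them, so that their position relative to the borders of the reads can be seen. The 9 nucleotides altered in 10% or more of 10 or more Rbp95-HTP hits are all contained in these stretches and in the peak sequence, in which T713 is the base at position 24 and C734 the base at position 45.
C73, nucleotides 51 to 87, chrXII:455095-455131, minus strand: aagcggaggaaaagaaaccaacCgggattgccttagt
T240, nucleotides 211 to 256, chrXII:454926-454971, minus strand: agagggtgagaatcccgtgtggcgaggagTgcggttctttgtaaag
A327, nucleotides 306 to 342, chrXII:454840-454876, minus strand: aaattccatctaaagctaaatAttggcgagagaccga
A646, nucleotides 529 to 651, chrXII:454531-454653, minus strand: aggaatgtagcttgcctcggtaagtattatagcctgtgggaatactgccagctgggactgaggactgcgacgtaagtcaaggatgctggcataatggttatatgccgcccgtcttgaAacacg
A914, nucleotides 861 to 922, chrXII:454260-454321, minus strand: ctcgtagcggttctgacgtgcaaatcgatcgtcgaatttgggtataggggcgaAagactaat
C1146, nucleotides 1133 to 1162, chrXII:454020-454049, minus strand: agaactggcgatgCgggatgaaccgaacgt
A1197, nucleotides 1193 to 1216, chrXII:453966-453989, minus strand: agacAccacaaaaggtgttagttc

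With Rbp95-HTP the region was covered widely but at low height, and it carried a small part of the reads. Rbp95-HTP gave 160405 hits, or 5.49% of its 35S total, and the control gave 2127569 hits, or 52.9%. For comparison, the region spans 21.1% of the 35S nucleotides. The Rbp95-HTP hits correspond to an estimated 4982 reads, or 5.12% of the 35S reads (4.98 to 5.26%), and the control hits to 50657 reads, or 50.7% (50.4 to 51.0%). The order of the libraries was the opposite for the number of nucleotides covered. The Rbp95-HTP reads covered 892 of the 1450 nucleotides (61.5%) and the control reads 288 (19.9%). At least 100 hits were reached on 450 nucleotides by Rbp95-HTP and on 111 by the control, and the median nucleotide had 41 Rbp95-HTP hits and 0 control hits.

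Of the covered nucleotides, 287 had hits in both libraries, which is 32.2% of those covered with Rbp95-HTP and 99.7% of those covered in the control. A further 605 nucleotides were covered with Rbp95-HTP only, 1 in the control only, and 557 in neither library. At 583 nucleotides (40.2% of the region) the Rbp95-HTP library had at least 10 hits and the control none, and this share was 38.4% over the whole 35S pre-rRNA, so it was close to that of the transcript as a whole. The reverse, at least 10 control hits and none with Rbp95-HTP, was found at 0 nucleotides of the region, compared with 0.773% of the whole 35S pre-rRNA.

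**Figure D1:**
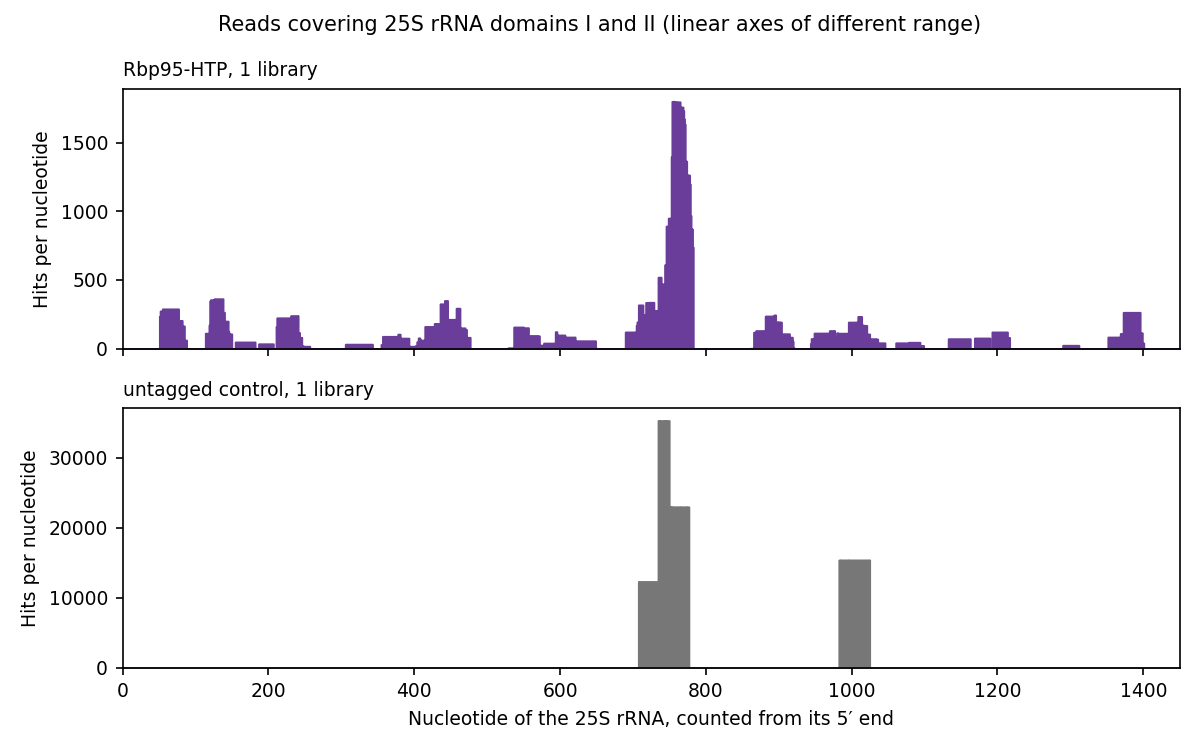
Hits per nucleotide along 25S rRNA nucleotides 1 to 1450, with Rbp95-HTP above and the untagged control below, on linear axes of different range. The Rbp95-HTP hits form 17 separate stretches with a maximum of 1800 hits, and the control hits form 2 visible blocks of up to 35268 hits, the other control stretches having at most 4 hits.

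Compared with the rest of the 25S rRNA, the region was covered less densely with Rbp95-HTP and more densely in the control. Its mean was 110.6 hits per nucleotide with Rbp95-HTP, against 1300 for the other 1946 nucleotides of the 25S rRNA, a ratio of 0.0851. In the control the region had a mean of 1467 hits, against 404 in the rest, a ratio of 3.63. Both ratios depended on the highest peak of the respective pileup, which lies outside the region with Rbp95-HTP and inside it in the control. Without that peak and 50 nucleotides on either side, the ratio was 0.368 for Rbp95-HTP and 1.19 for the control. The share of nucleotides covered was 61.5% in the region and 71.1% in the rest of the 25S rRNA with Rbp95-HTP, and 19.9% and 26.6% in the control.

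The Rbp95-HTP reads fell into 17 covered stretches of 20 to 123 nucleotides, with a median length of 37 nucleotides. The 10 stretches that reached at least 100 hits held 94.5% of the hits of the region. The largest of them ran from nucleotide 690 to 783 and held 42.6% of the hits and 1981 of the estimated reads. Its highest point was nucleotide 756 (nucleotide 4007 of the 35S pre-rRNA) with 1800 hits, or 1.85% of the 35S reads (1.77 to 1.94%), which is 2.70% of the height of the highest peak of this library. In the control nucleotide 756 had 22965 hits. Each other stretch of the region stayed below 400 hits with Rbp95-HTP.

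The other Rbp95-HTP peaks were more alike in height, and most lay where the control had hardly any reads. In the 5′ part of the region, nucleotide 126 had 362 Rbp95-HTP hits and 0 control hits, in a stretch from 114 to 149. The stretch from 51 to 87 reached 288 Rbp95-HTP hits and 0 control hits, and that from 211 to 256 reached 239 Rbp95-HTP hits and 2 control hits. Nucleotide 442, in the longer stretch from 355 to 476, had 349 Rbp95-HTP hits and 3 control hits. This stretch held 567 of the Rbp95-HTP reads, the second largest number in the region.

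In the 3′ part, nucleotide 894 had 244 Rbp95-HTP hits and nucleotide 1373 had 263, and the control had 0 hits at both. The intervals of these peaks overlapped, with 0.251% (0.221 to 0.284%) of the 35S reads at nucleotide 894 and 0.270% (0.240 to 0.305%) at nucleotide 1373, so their order could not be told from counting error. The stretch from 944 to 1045 was the exception in its control coverage, since its peak at nucleotide 1009 had 233 Rbp95-HTP hits and 15381 control hits. The stretches from 529 to 651 and from 1193 to 1216 reached 156 and 120 hits with Rbp95-HTP and had no control hits.

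A group of 7 smaller Rbp95-HTP stretches had 23 to 76 hits each. In 6 stretches a single start and a single end accounted for at least 95% of the reads, so that nearly all reads of each of them had the same ends. These 6 lay at nucleotides 155 to 183 (47 reads), 187 to 206 (34 reads), 306 to 342 (31 reads), 1133 to 1162 (71 reads), 1169 to 1189 (76 reads) and 1290 to 1311 (23 reads). None of them had a hit in the control.

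Between the stretches there were parts without a single Rbp95-HTP read. The longest had 77 nucleotides and ran from nucleotide 784 to 860, directly after the largest peak. The next in length were nucleotides 1217 to 1289 (73 nucleotides) and 477 to 528 (52 nucleotides), followed by the first 50 and the last 50 nucleotides of the region. In the control the longest part without a read had 413 nucleotides and comprised nucleotides 1038 to 1450.

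The 3 control fragments were each 42 nucleotides long. They began at nucleotides 735, 708 and 983 with 22959, 12299 and 15378 net reads, or 45.3%, 24.3% and 30.4% of the control reads of the region, and 99.96% of these reads began at 1 of these 3 nucleotides. The Rbp95-HTP library had 242 net reads starting at nucleotide 735, 124 at nucleotide 708 and 0 at nucleotide 983. At the last nucleotides of these fragments, 776, 749 and 1024, the Rbp95-HTP library had 0, 0 and 34 net read ends. So at 2 of the 3 fragments the libraries shared the net start but not the net end. Whether the common length of the control fragments was set by the RNA or by the length of the reads was not tested.

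Outside the 111 nucleotides of these fragments the Rbp95-HTP library had 93596 hits on 781 nucleotides, and the control 360 hits on 177 nucleotides. A net 3072 Rbp95-HTP reads and only 8 control reads began there, so ratios without the fragments rest on very few control reads. The direction of the comparison between the libraries depended on whether the control fragments were kept. They were defined by the control's own reads and held 99.98% of its hits of the region, against 41.7% with Rbp95-HTP. Leaving them out therefore had to raise the ratio. Scaled to the 35S hits of each library, the region had 0.104 times as many hits with Rbp95-HTP as in the control, and 173 times as many when the nucleotides of the 3 fragments were left out of both libraries, in the region and in the 35S hits used for scaling. With the full 35S hits kept for scaling, the second ratio was 358. Leaving out these nucleotides, in either way, was a choice made after the values were seen. What gave rise to the control fragments was not tested.

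**Figure D2:**
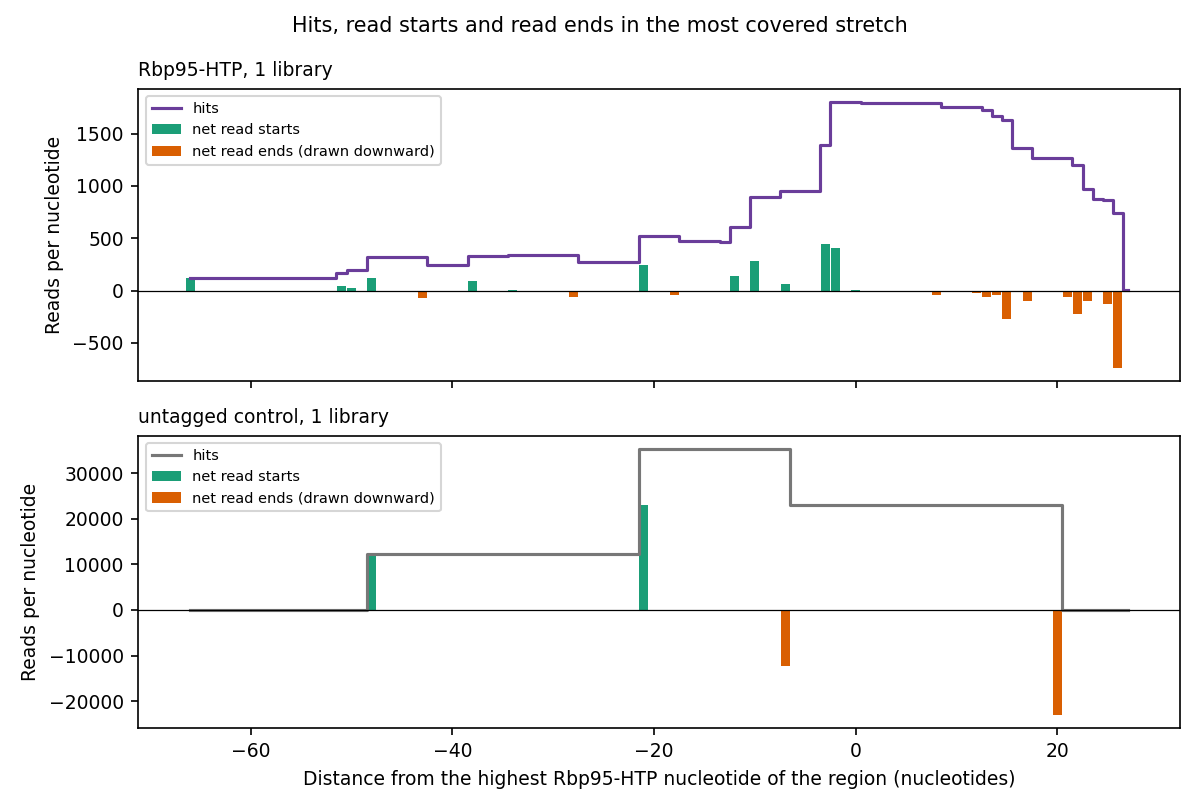
Hits (line), net read starts (bars upward) and net read ends (bars downward) in the stretch from nucleotide 690 to 783, plotted by distance from nucleotide 756, with Rbp95-HTP above and the untagged control below. The Rbp95-HTP reads begin at 13 and end at 21 positions, with the largest number of ends, 737, close to the 3′ border of the stretch, while the control forms 2 overlapping blocks.

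Read starts and ends were spread over many positions with Rbp95-HTP. Net starts and ends were read from the upward and downward steps of the hits, and are lower bounds because starts and ends on neighboring nucleotides cancel. The 4982 Rbp95-HTP reads began at 65 positions, of which 11 held 50% and 37 held 90% of the reads. The 50657 control reads began at 16 positions, of which 3 held 90%. The other 13 control starts held 1 to 3 net reads each. Ends were found at 95 positions with Rbp95-HTP and at 20 in the control. The libraries had 9 start positions and 5 end positions in common, or 9 of 65 starts with Rbp95-HTP and 9 of 16 in the control.

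The largest Rbp95-HTP starts clustered in the peak. A net 447 reads (8.97%) began at nucleotide 753 and 403 at nucleotide 754, where the control had no net start, and 282 began at nucleotide 746, compared with 1 in the control. Outside the peak, 233 reads began at nucleotide 51, 176 at 120, 160 at 211, 154 at 1373, 151 at 537 and 143 at 436, and the control had at most 1 net start at these nucleotides. Among the ends, nucleotide 782 stood apart with 737 reads (14.8%), compared with 1 in the control. The next ends were at nucleotide 771 with 269 reads and at nucleotide 778 with 229 reads, both without a control end. The other 7 of the 10 largest ends, at nucleotides 1395, 462, 445, 781, 240, 149 and 84, held 103 to 149 reads each. The hits per estimated read in the region were 32.2 with Rbp95-HTP and 42.0 in the control, which are upper bounds of the mean read length in nucleotides because the numbers of reads are lower bounds.

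**Figure D3:**
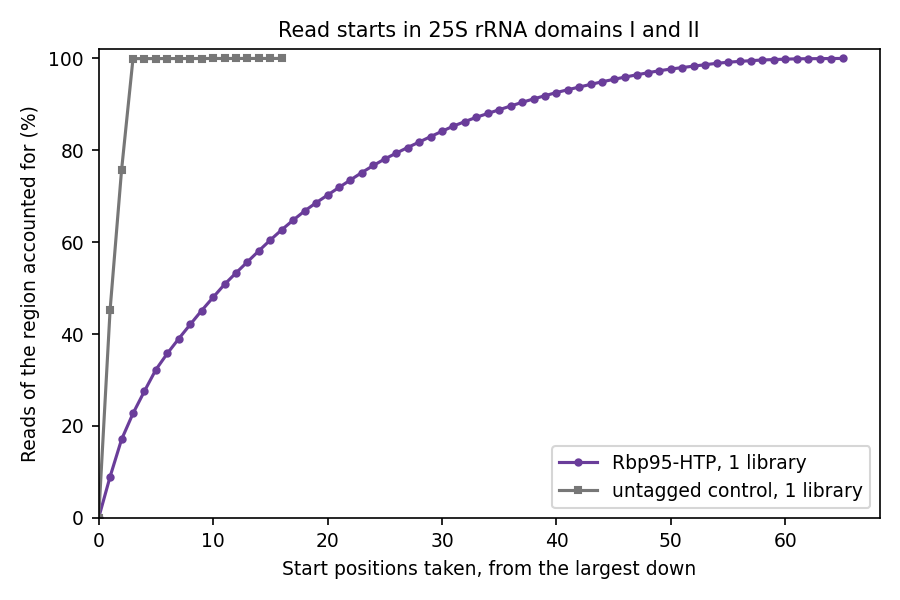
Cumulative share of the reads of the region, in percent, against the number of start positions taken from the largest down, for Rbp95-HTP and for the untagged control. In the control 3 positions account for 99.96% of the reads, whereas 37 positions are needed for 90% with Rbp95-HTP.

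RNase A cleaves RNA after C and U, preferably before A, and RNase T1 cleaves after G, and the RNase mixture used for trimming contains both enzymes. The base before the start was C for 54.9% and U for 41.5% of the Rbp95-HTP reads, A for 2.93% and G for 0.682%. Together 96.4% of the Rbp95-HTP reads and 99.98% of the control reads began after a pyrimidine, while 43.0% of the nucleotides of the region follow one. A pyrimidine followed by A was found at the break of 57.2% of the Rbp95-HTP reads and 75.7% of the control reads, against 9.72% of the nucleotides of the region. Counted by position, so that large stacks do not weigh more, 84.6% of the 65 Rbp95-HTP start positions and 62.5% of the 16 control start positions followed a pyrimidine. In the rest of the 35S pre-rRNA 80.5% of the 241 Rbp95-HTP start positions did.

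The 3′ ends had another composition than the 5′ breaks. The last base of the Rbp95-HTP reads was U for 44.9%, G for 31.4%, C for 12.3% and A for 11.4%, so that G, which makes up 29.5% of the region, was at the ends close to its share of the nucleotides and before the starts well below it. C, U or G was the last base of 88.6% of the Rbp95-HTP reads and of 99.95% of the control reads, against 72.6% of the nucleotides of the region. The control share rested on 3 end positions, which held 99.88% of its net ends. Each was the last base of a control fragment of 42 nucleotides, so this share reflects 3 bases only. Counted by position, these were 84.2% of the 95 Rbp95-HTP end positions and 75% of the 20 control end positions.

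Altered nucleotides can mark crosslinked bases, since reverse transcriptase misreads or skips a base that carries a peptide remnant. In the region 957 substitutions and 3 deletions were found with Rbp95-HTP, so that 0.598% of the hits were altered, and 6229 substitutions and 50 deletions in the control, or 0.295%. In the rest of the 25S rRNA 0.960% of the hits were altered with Rbp95-HTP and 0.222% in the control. Without the highest Rbp95-HTP peak and 50 nucleotides on either side, the rest had 0.400% with Rbp95-HTP, so the region lay below the rest with this peak and above it without. The highest control peak lies inside the region. Without it and 50 nucleotides on either side, the region had 0.215% in the control, slightly below the 0.222% of the rest. The altered hits with Rbp95-HTP were concentrated on a few nucleotides. Among nucleotides with 100 or more hits, 6 of 450 (1.33%) had an altered share of 10% or more with Rbp95-HTP, a share close to the 1.17% of the whole 35S pre-rRNA, and 0 of 111 in the control, compared with 0.382% over the whole 35S pre-rRNA. These 6 nucleotides held 39.0% of the altered hits of the region. The median altered share of the 450 nucleotides was 0%, and 257 of them had no altered hit.

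The 6 nucleotides were A1197, T240, A914, C734, T713 and C73 (T stands for U of the rRNA). A1197 was altered in 80 of 120 hits with Rbp95-HTP, or 66.7% (57.8 to 74.5%), and T240 in 122 of 238 hits, or 51.3% (44.9 to 57.5%). At these nucleotides the control had 0 and 2 hits, none altered, which is too few for a control share. A914 was altered in 26 of 107 hits (24.3%, 17.2 to 33.2%) and C73 in 40 of 288 hits (13.9%, 10.4 to 18.4%), both without a control hit.

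A comparison with the control was possible at 2 of the 6. C734 was altered in 55 of 277 hits with Rbp95-HTP, or 19.9% (15.6 to 24.95%), against 33 of 12303 in the control, or 0.268% (0.191 to 0.376%). T713 was altered in 51 of 317 hits with Rbp95-HTP, or 16.1% (12.5 to 20.5%), against 42 of 12303 in the control, or 0.341% (0.253 to 0.461%). Both differences lay outside the counting intervals, but the place of the bases within the reads was not matched. Both nucleotides were chosen by an altered share of 10% or more with Rbp95-HTP. No control share at 100 or more hits in the region was above 1.23%, so the direction of both differences followed from this choice. On T713 a net 71 Rbp95-HTP reads ended and 0 control reads. The bases next to C734 and T713 were altered in at most 0.193% of the Rbp95-HTP hits. The 5 nucleotides with the most altered hits in the control, A771, A775, A761, A736 and T772, all lay in the control fragment from 735 to 776. Their altered shares were 0.193 to 0.857% with Rbp95-HTP and 0.462 to 1.23% in the control. Ranking by the number of altered hits favors nucleotides with more hits. T723, outside that fragment, was altered in 137 of 12303 control hits, or 1.11% (0.943 to 1.31%).

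**Figure D4:**
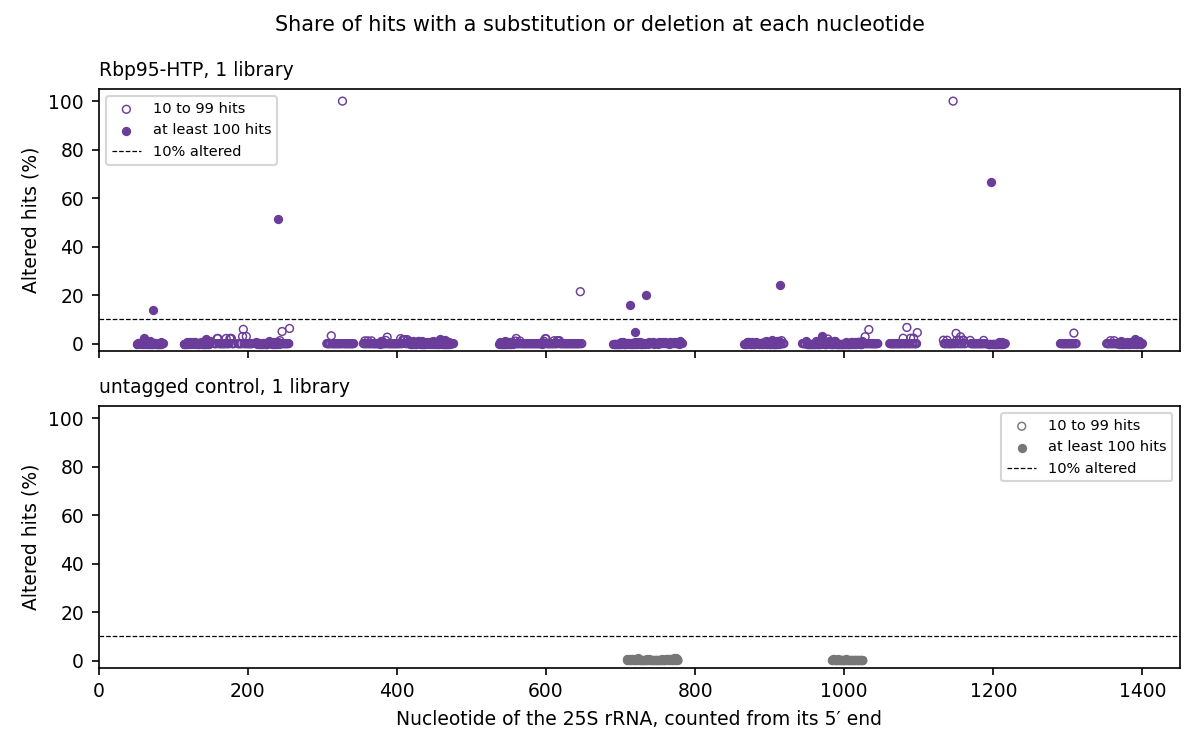
Share of hits with a substitution or deletion at each nucleotide, in percent, against the position in the 25S rRNA, with Rbp95-HTP above and the untagged control below. Filled points had at least 100 hits and open points 10 to 99 hits, and the dashed line marks 10%. With Rbp95-HTP 9 points lie above the line, and in the control the highest value is 1.23%.

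Several of the altered counts were equal to the number of reads with 1 particular end. The 122 altered hits at T240 equaled the net 122 reads that ended on this nucleotide, the 80 at A1197 equaled the 80 reads that ended at nucleotide 1216, and the 40 at C73 equaled the 40 reads that began at nucleotide 52 and the 40 that ended at nucleotide 81. At A914 there were 26 altered hits and 25 reads that ended there. C734 and T713, with 55 and 51 altered hits, lay within 30 nucleotides of a start of 48 reads at nucleotide 705. None of the starts and ends near them had exactly their size. A net 71 reads ended on T713 itself. Read ends on C734 could be hidden by the net 242 reads that began at nucleotide 735. Whether any of these reads are copies of single molecules was not tested.

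Among nucleotides with 10 to 99 hits, a further 3 had an altered share of 10% or more. C1146, in the stretch from 1133 to 1162, was altered in all 71 of its 71 hits (100%, 94.9 to 100%), and all 71 reads shared the same start and end. A327 and A646 were singled out after their values were seen. A327 was altered in 31 of 31 hits (100%, 89.0 to 100%), again in a stretch with 1 start and 1 end, and A646 in 12 of 56 hits (21.4%, 12.7 to 33.8%). None of the 3 had a control hit. With them, 9 of the 870 nucleotides with 10 or more Rbp95-HTP hits reached this share, against 0 of 113 in the control. These 9 nucleotides held 488 altered hits, or 50.8% of those of the region. At this lower hit minimum the share of such nucleotides was not counted over the whole transcript. Whether it is particular to the region was therefore not tested.

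Away from these 9 nucleotides the libraries had altered shares with overlapping intervals, 0.297% (0.271 to 0.325%) with Rbp95-HTP and 0.295% (0.288 to 0.303%) in the control. A was altered in 0.420% of the remaining Rbp95-HTP hits and 0.442% of the control hits, and U in 0.389% of the Rbp95-HTP hits and 0.405% of the control hits. For C these shares were 0.195% for Rbp95-HTP and 0.193% for the control, and for G 0.186% for Rbp95-HTP and 0.149% for the control. A and U thus had the higher shares in both libraries.

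A645, the adenosine methylated by Rrp8, was covered by 56 Rbp95-HTP hits, close to the end of the stretch from 529 to 651. None of them was altered, and at this depth 3 altered reads would be a share of 5.36%. The neighboring A647 also had 0 altered hits of 56, while A646 had the 12 altered hits given above. A net 55 reads ended at nucleotide 648. The control had no hit on any of these nucleotides.

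Helix H45, near the 3′ end of the region, was tested as an RNA ligand of Rbp95 in vitro by the study. The study described H45 as not bound in vivo and found that Rbp95 bound it in vitro. H45 is the only place in the region where a perfect inverted repeat of 8 bases encloses a loop of 3 to 12 nucleotides. It is shown here with the stem in capitals.
H45, nucleotides 1339 to 1365, chrXII:453817-453843, minus strand: CGTCAGGGttgatatgatgCCCTGACG

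The 5′ strand of H45 and the start of its loop had no Rbp95-HTP hit, and coverage began at nucleotide 1352 within the loop. Of its 27 nucleotides 14 were covered, all in the stretch from 1352 to 1400, whose peak of 263 hits lay at nucleotide 1373, outside the helix. The highest value within the helix was 83 hits with Rbp95-HTP. The control had 0 hits, where 3 reads would be 0.0030% of the 35S reads.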

How the data were processed

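Values were taken from the deposited 35S pileups, which hold counts: with pyPileup (pyCRAC suite, limit of 100000 reads) the authors counted, for each nucleotide of the 35S pre-rRNA, the reads covering it and those with a substitution or deletion. Before this, they trimmed and filtered the reads with Flexbar and aligned them with Novoalign. The submitters' processing notes name Novoalign and R64, and versions are not given in the sources used here. The methods name a HiSeq and the labels a MiSeq sequencer. The design text names Nap1_HTP instead of Rbp95, and the title of the sample was followed. The deposited tables of RNA classes and snoRNAs were not used here. Collapsing of PCR duplicates is not mentioned in the methods, and uncollapsed copies would raise the height of single stretches and the number of altered hits.

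The members and lists were chosen with earlier results of these data known. Numbers of the 25S rRNA are positions in the 35S pre-rRNA minus 3251. A stretch is a run of nucleotides with at least 1 hit. Named were, in each library, stretches of at least 100 hits (at most the 10 highest), the 10 largest net starts and ends, nucleotides with 100 or more hits and an altered share of 10% or more, the 5 with the most altered hits, helix H45 and the adenosine methylated by Rrp8. Neighboring peaks had to be at least 100 nucleotides apart. The smaller stretches, the gaps, A327, A646, T719 and T723 were added to the named items once their values were known. The alternatives tried were denominators, hit minimums, the distance between peaks and the kind of alteration counted. Sequences come from the reference column of the pileups and coordinates from the R64 gene table. Python 3.11.15 with numpy 2.4.6 and scipy 1.17.1 ran the counts, and matplotlib 3.10.9 drew the figures. The counting steps were tested on simulated data.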

Additional observations from a re-analysis of the deposited data

How the results depend on the processing

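The share of the 35S hits on the region was 5.49% with Rbp95-HTP and 52.9% in the control. With the 25S hits as the denominator it was 5.96% and 73.0%, in estimated reads 5.12% and 50.7%, and without the highest 35S peak of each library 16.9% and 25.4%, in each case with Rbp95-HTP first and lower than the control. Covered nucleotides numbered 892 with Rbp95-HTP and 288 in the control at 1 hit, 870 and 113 at 10 hits, and 450 and 111 at 100 hits. The 6 nucleotides altered in at least 10% of the hits with Rbp95-HTP became 3 at a limit of 20% and 0 when deletions were counted alone, 4 to 8 at other hit minimums, and 6 at a limit of 5%. In the control there were 0 under each of these settings. The altered share of all hits with Rbp95-HTP was 0.523% without the most altered nucleotide and 0.368% without all strongly altered nucleotides, and in the control 0.285% without its most altered nucleotide. The ratio of Rbp95-HTP to control was 0.104, 0.0754 without scaling, 0.665 when scaled without the highest 35S peaks, and 0.2 without the highest peak of the region, scaled to the full 35S hits. Without the 3 control fragments it reversed, to 358 when scaled to the full 35S hits and to 173 when the fragments were left out of these as well, both settings chosen after seeing the data. The control has 360 hits and 8 net read starts of the region left in these settings. The fragments were defined by the control's own reads, so the reversal followed from leaving them out. The second peaks, at nucleotide 126 with Rbp95-HTP and 996 in the control, were found at each distance tried.

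No paired analysis was possible because each group has 1 library. The limit of 100000 reads per pileup and the unknown number of PCR copies bound the depth. At a nucleotide with 100 hits, 3 altered reads are a share of 3%, and smaller shares were taken as too low to tell from 0. This limit is a set number of reads and was not derived from a test.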

Other observations

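Among the less altered nucleotides of the region, T719 in the largest stretch was altered in 16 of 335 hits with Rbp95-HTP, or 4.78% (2.96 to 7.62%), and in 38 of 12303 hits in the control, or 0.309% (0.225 to 0.424%). It lies between T713 and C734 and was singled out after its values were seen. The most altered nucleotide of the control, A771, showed the opposite order, with 14 of 1633 hits (0.857%, 0.511 to 1.43%) with Rbp95-HTP and 282 of 22964 hits (1.23%, 1.09 to 1.38%) in the control, and these intervals overlapped. No explanation was tested for either.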
